A study of Mus musculus with 9 samples.

Results

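The genes described here encode the subunits of the phagocyte NADPH oxidase, followed through 3 populations of mouse lung macrophages. They were picked by gene symbol, with earlier results of these data known, as Cybb, Cyba, Ncf1, Ncf4 and Rac2, which makes 5 of the 24346 genes in the expression files. All 5 passed the filter on low values used for testing. The study asked how alveolar macrophages (AMs), the resident macrophages of the air spaces, respond to a tumor in the same lung. It implanted LLC (Lewis lung carcinoma) cells into the left lung, a cancer line of C57BL/6 origin that here carried the fluorescent protein tdTomato. RNA from sorted macrophages was sequenced in 9 samples, 3 per group, all from lungs of female C57BL/6 mice at postnatal week 10.

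Ctrl-AM were AMs of mice that received vehicle, Tumor-AM were AMs of mice with LLC tumors, and Tumor-macrophage were the tumor-associated macrophages (TAMs) of mice with LLC tumors. The labels name no engineered allele in any group. In the study both populations came from CD45+ autofluorescent cells, AMs as those with Siglec-F and F4/80 and TAMs as those without Siglec-F. The study describes the TAMs as carrying F4/80 and CD11b. By its methods the tumor mice and their controls were bred apart, so that the tumor and the separate breeding cannot be told apart in any comparison with Ctrl-AM. Each population was sorted from 3 mice, and no source used here says whether Tumor-AM and TAM samples of the same number came from the same mouse.

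The phagocyte NADPH oxidase moves electrons from NADPH across the membrane of the phagosome or the cell to oxygen and so makes superoxide. Its membrane part, flavocytochrome b558, is a dimer of gp91phox (Cybb), which carries the electrons, and p22phox (Cyba), which stabilises gp91phox and docks the cytosolic part. In a resting cell p47phox (Ncf1) and p40phox (Ncf4) wait in the cytosol, and on stimulation the cytosolic part joins the membrane part together with the small GTPase Rac. Loss of any of these subunits in people causes chronic granulomatous disease or a related defect of killing microbes, and AMs and recruited macrophages both use the enzyme against inhaled microbes.

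The populations carried the surface markers that the study describes for them. Siglecf was 201.4 ± 7.95 FPKM (SD, n = 3) for Ctrl-AM, 172 ± 10.3 FPKM for Tumor-AM and 0.651 ± 0.190 FPKM for Tumor-macrophage, and all 8 markers of an AM list passed the test as lower in TAMs than in AMs of tumor-bearing mice. Itgam, which encodes CD11b, was at 147 ± 11.2 FPKM in TAMs and 4.20 ± 0.506 FPKM in Tumor-AM. FPKM counts reads per length of transcript and per mapped reads of the sample, so that levels can be compared between genes. The summed FPKM of 6 monocyte markers ran from 334 to 352 for Tumor-macrophage, against 17.9 to 20.9 for Ctrl-AM and 24.6 to 29.9 for Tumor-AM. Of these 6, 3 were higher and 0 lower in Tumor-AM relative to Ctrl-AM, beside 7.11% and 3.18% of all genes tested. They were Itgam, Ccr2 and Ly6c2, with log2 changes of 1.26 ± 0.10, 0.97 ± 0.19 and 0.50 ± 0.09 (SE). Of the 8 AM markers, 0 were higher and 1 lower there, Pparg (-0.53 ± 0.09, limma adjusted p = 0.00455). Neutrophils are rich in this oxidase. Their granule genes Elane and Camp had means of 0 to 0.0737 FPKM in the 3 groups, but other markers of the list were present. S100a8 was at 77.7, 121 and 64.3 FPKM for Ctrl-AM, Tumor-AM and TAMs, the granule gene Mmp8 at 39.5, 40.0 and 5.46 FPKM and Csf3r at 12.1, 10.7 and 37.0 FPKM. In contrast to S100a8, S100a9 was lowest in Tumor-AM, at 25.4, 6.97 and 15.0 FPKM, as was Retnlg, at 2.59, 0.697 and 0.870 FPKM. Of 6 neutrophil markers tested, 0 were higher and 2 were lower in Tumor-AM relative to Ctrl-AM, S100a9 and Retnlg, beside 7.11% and 3.18% of all genes tested. Of the same 6, 1 was higher and 3 were lower in TAMs than in Tumor-AM, beside 24.2% and 24.4% of all genes tested. These last shares also stand beside the counts of AM and B cell markers in TAMs against Tumor-AM. The sum of the 10 in the files was 146 to 175 FPKM for Ctrl-AM, 151 to 214 for Tumor-AM and 95.8 to 145 for Tumor-macrophage. B cells also use several of the subunits. The sum of 4 B cell markers was 12.7 to 16.8 FPKM for Ctrl-AM, 3.15 to 7.49 for Tumor-AM and 31.5 to 58.2 for Tumor-macrophage, and 4 of 4 passed as higher in TAMs than in Tumor-AM. Summed T and NK cell markers and dendritic cell markers reached at most 15.9 and 20.4 FPKM, in TAMs. The part of other cells in the results was not tested. In such bulk samples, fewer cells of a type and less RNA per cell cannot be told apart.

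The genes lie on 4 chromosomes of GRCm38, the assembly also called mm10, by the GENCODE vM21 annotation. Cybb lies on the minus strand at chrX:9435252-9487771, Cyba on the minus strand at chr8:122424776-122432930, and Ncf1 on the minus strand at chr5:134220053-134229625. Ncf4, on the plus strand at chr15:78244801-78262580, and Rac2, on the minus strand at chr15:78559167-78572783, share chromosome 15. The files give 1 value for each gene, over its exons. No 75-base window of the main transcripts of Cybb, Cyba, Ncf4 and Rac2 occurs in a transcript of another gene, 75 bases being the read length. In Ncf1, 4.09% of the windows are shared with Gtf2ird2 on the opposite strand, which the kit used does not keep apart.

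The RefSeq promoter table holds 3 of the 5 members, and the 250 bases before the annotated start of each are printed here because transcription factors of the interferon regulatory factor (IRF) family, 2 of which differed between the groups, are known to bind at oxidase genes. They are given 5′ to 3′ on the strand of the gene, in GRCm38.p6, at chrX:9469325-9469574 for Cybb, chr8:122432941-122433190 for Cyba and chr5:134229626-134229875 for Ncf1. The RefSeq start of Cybb lies inside the longer GENCODE gene. Capitals mark matches on either strand to an IRF element, searched as GAAA, any 2 bases and GAAA.
Cybb: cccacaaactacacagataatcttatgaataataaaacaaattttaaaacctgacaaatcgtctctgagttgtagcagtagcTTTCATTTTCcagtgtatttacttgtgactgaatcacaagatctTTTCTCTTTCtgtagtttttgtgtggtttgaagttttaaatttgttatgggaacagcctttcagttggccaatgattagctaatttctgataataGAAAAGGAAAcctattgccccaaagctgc
Cyba: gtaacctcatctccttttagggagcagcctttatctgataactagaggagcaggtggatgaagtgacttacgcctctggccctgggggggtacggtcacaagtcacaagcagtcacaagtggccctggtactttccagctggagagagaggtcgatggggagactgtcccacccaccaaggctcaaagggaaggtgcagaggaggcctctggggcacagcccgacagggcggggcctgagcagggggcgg
Ncf1: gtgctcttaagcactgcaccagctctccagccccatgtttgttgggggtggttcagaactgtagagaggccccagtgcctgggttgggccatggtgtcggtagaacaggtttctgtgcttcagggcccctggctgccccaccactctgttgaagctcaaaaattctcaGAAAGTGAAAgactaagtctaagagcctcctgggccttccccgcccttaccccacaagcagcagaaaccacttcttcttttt

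The Cybb window held 3 matches and the Ncf1 window held 1, at 82 to 73 bases before the start. The match nearest the Cybb start lay 29 to 20 bases before it. Of 32851 such windows in the table, 3.0% held the element. The Cyba window held no match. GAGGAA, a core bound by PU.1, was in none of the 3 windows and in 23.3% of all, and an ETS and IRF composite, searched as GGAA, any 2 bases and GAAA, was in none of the 3 and in 2.3% of all. Both strands were searched for each, and no match overlapped another. A match describes the letters of a window and does not show binding.

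The subunits differed widely in level, and their order was nearly the same in each population. Cyba was the most abundant, at rank 37 of 24346 genes by mean FPKM for Ctrl-AM, rank 28 for Tumor-AM and rank 37 for Tumor-macrophage. Cybb followed at ranks 253 to 282. Ncf1, Rac2 and Ncf4 came next in that order in both AM groups, where Ncf4 was the lowest of the 5, at rank 1863 for Ctrl-AM and 1547 for Tumor-AM. In Tumor-macrophage, Ncf4 stood at rank 715. There the values of Ncf1, Ncf4 and Rac2 were close, at means of 132 ± 13.2, 138 ± 4.38 and 126 ± 7.93 FPKM, and their ranges overlapped. The summed level of the 5 genes was 2111 ± 34.0 FPKM for Ctrl-AM, 2487 ± 183 FPKM for Tumor-AM and 2754 ± 76.0 FPKM for Tumor-macrophage. Cyba made up 71.0% ± 0.777, 70.9% ± 1.65 and 72.7% ± 1.97 of that sum in the 3 groups in the same order.

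**Figure D1:**
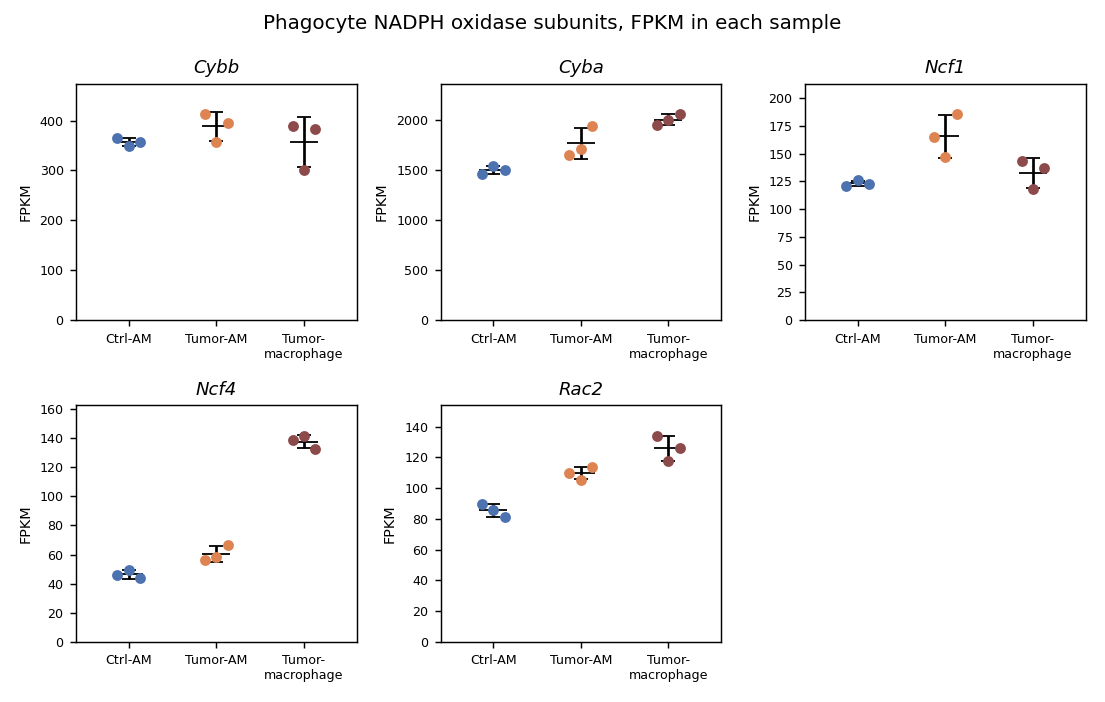
FPKM of the 5 subunit genes in the 9 samples, with 1 point per sample and a black bar for the mean and SD of each group of 3. Ncf4 rises from 43.6 to 49.3 FPKM for Ctrl-AM to 133 to 141 FPKM for Tumor-macrophage, while the Cybb points of the 3 groups overlap.

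The first comparison asks how the oxidase genes differ in AMs when the lung holds a tumor. Of the 5 members, 3 were higher in Tumor-AM relative to Ctrl-AM, the cytosolic subunits Ncf1 and Ncf4 and the GTPase Rac2, and 0 were lower. Among all 10686 genes tested, 7.11% were called higher and 3.18% lower. The median log2 change of the members was 0.36, beside 0.01 over all genes tested. The membrane subunits Cybb and Cyba did not pass the test, although Cyba did under quantile normalization, which gives every sample the same distribution of values.

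Cybb was at 365, 350 and 357 FPKM for Ctrl-AM samples 1, 2 and 3, and at 412, 357 and 396 FPKM in the Tumor-AM samples. The lowest Tumor-AM sample lay inside the range of Ctrl-AM. The log2 change of FPKM + 1 was 0.12 ± 0.10 (SE), with a 95% interval of -0.11 to 0.34 and a limma adjusted p of 0.535.

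Cyba was at 1459, 1537 and 1501 FPKM for Ctrl-AM and at 1651, 1702 and 1936 FPKM for Tumor-AM. Every Tumor-AM sample was above every Ctrl-AM sample, most of all Tumor-AM 3. Its log2 change of 0.23 ± 0.08 did not pass after adjustment over all genes tested, with a limma adjusted p of 0.0873. Under quantile normalization it was 0.28 and passed (limma adjusted p = 0.0223).

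Ncf1 encodes p47phox, the organiser that carries the cytosolic part to p22phox once it is phosphorylated. It was at 121, 126 and 123 FPKM for Ctrl-AM and at 165, 147 and 185 FPKM for Tumor-AM. The Tumor-AM samples were all higher and also spread more widely. Its log2 change was 0.42 ± 0.10, or 1.34-fold on this scale, with a limma adjusted p of 0.0230.

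Ncf4 encodes p40phox, which binds the lipid phosphatidylinositol 3-phosphate on phagosomes. Its level was 46.0, 49.3 and 43.6 FPKM for Ctrl-AM and 56.3, 58.0 and 66.5 FPKM for Tumor-AM, with no overlap. Its log2 change was 0.37 ± 0.08 with a limma adjusted p of 0.0179.

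Rac2 encodes the Rac GTPase of blood cells. It was at 89.9, 85.5 and 81.3 FPKM for Ctrl-AM and at 110, 106 and 113 FPKM for Tumor-AM, again with no overlap between the groups. Its log2 change was 0.36 ± 0.07 with a limma adjusted p of 0.0121.

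These AM changes were small, and they depended on how the samples were scaled. The sum of FPKM over all genes was higher in Tumor-AM, at 694977 to 731731, than in Ctrl-AM, at 635560 to 660730. Rescaling every sample to the same sum (TPM) moved the median log2 change of all genes to -0.10, and 0 of the 5 members were then called. Quantile normalization called 4, with Cyba added, and median-ratio scaling called 3. The split of all calls moved with the scaling, from 760 higher and 340 lower genes to 468 and 837 under TPM and 607 and 446 under quantile normalization. Ncf1 was at 0.28 (limma adjusted p = 0.0844), Ncf4 at 0.24 (0.0901) and Rac2 at 0.22 (0.0741), each still above the new median. Without Ctrl-AM 3, 0 members were called, and without Ctrl-AM 1 or Tumor-AM 3 only 1 was, Rac2. Over all 18 alternatives the calls of Ncf1, Ncf4 and Rac2 were lost in 7, 4 and 2, and none of the 3 turned in direction.

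The next comparison sets TAMs against AMs of tumor-bearing mice. Ncf4 was 2.28 times as high in Tumor-macrophage as in Tumor-AM by mean FPKM, Ncf1 was lower, Rac2 was slightly higher, and Cybb and Cyba did not pass the test. Of the 5 members, 2 were higher and 1 was lower, where 24.2% of all genes tested were called higher and 24.4% lower. The median log2 change of the members was 0.18, beside 0.0012 over all genes. Tumor-AM stands in both this comparison and the one before, so that a high Tumor-AM value pulls them in opposite directions.

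The Ncf4 level in Tumor-macrophage was 139, 141 and 133 FPKM, and every one of these lay far above the highest Tumor-AM sample, at 66.5 FPKM. The log2 change was 1.18 ± 0.08, with a limma adjusted p of 6.33e-07. It stayed between 1.09 and 1.25 in the 18 alternatives, all past the threshold. An estimated 710 to 2080 reads lay behind each Ncf4 value, so that counting alone gave an error of at most 3.75%. The summed monocyte and B cell markers given above were also highest in this group, and their part in the Ncf4 level was not tested.

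Ncf1 was at 143, 118 and 137 FPKM for Tumor-macrophage, below all 3 Tumor-AM samples and on both sides of the Ctrl-AM range. Its log2 change from Tumor-AM was -0.32 ± 0.10, with a limma adjusted p of 0.0196. The call was lost without Tumor-AM 3, the highest Ncf1 value of the series (-0.24, limma adjusted p = 0.0761), and without Tumor-macrophage 2, the lowest TAM value (-0.24, 0.0664).

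Rac2 was at 134, 118 and 126 FPKM for Tumor-macrophage, each above the highest Tumor-AM sample. The log2 change of 0.19 ± 0.07 passed narrowly, with a limma adjusted p of 0.0445, and the call was lost in 12 of 18 alternatives, with adjusted p up to 0.285.

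The membrane pair gave no call with all samples and without rescaling. Cybb in Tumor-macrophage was at 389, 300.4 and 383 FPKM, a spread wider than that of either AM group, since Tumor-macrophage 2 was the lowest value of the series. Its log2 change from Tumor-AM was -0.13 ± 0.10 (limma adjusted p = 0.332). Cyba was at 1950, 2000 and 2051 FPKM, above all Tumor-AM samples, with a log2 change of 0.18 ± 0.08 (limma adjusted p = 0.0698). Without Tumor-AM 3 it passed as higher, at 0.25 (limma adjusted p = 0.0212). Its direction depended on the scaling, since quantile normalization turned it to -0.29 with a limma adjusted p of 0.00349.

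Against Ctrl-AM, TAMs were higher in 3 of the 5 members, Cyba, Ncf4 and Rac2, and lower in 0, where 27.7% of all genes tested were called higher and 27.1% lower. The median log2 change of the members was 0.42, beside -0.0082 over all genes. Ncf4 had the largest, at 1.55 ± 0.08 with a limma adjusted p of 6.03e-08, and 2.97 times the mean FPKM of Ctrl-AM. Rac2 was higher by 0.55 ± 0.07 (limma adjusted p = 7.65e-05), and Cyba by 0.42 ± 0.08 (limma adjusted p = 0.000918). Ncf1 was at 0.10 ± 0.10 (limma adjusted p = 0.408). Cybb had nearly equal means of 358 ± 7.69 and 358 ± 49.6 FPKM, and the 95% interval of its log2 difference ran from -0.23 to 0.22. Rescaling to TPM moved the median of all genes to -0.21 here and to -0.08 between TAMs and Tumor-AM. The calls against Ctrl-AM then changed from 2960 higher and 2900 lower genes to 2133 and 4412. Under it Cyba was at 0.18 (limma adjusted p = 0.0595), Ncf1 at -0.13 and Cybb at -0.25 (limma adjusted p = 0.0520), while Ncf4 at 1.32 and Rac2 at 0.32 passed. Quantile normalization put Cyba at -0.0074.

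**Figure D2:**
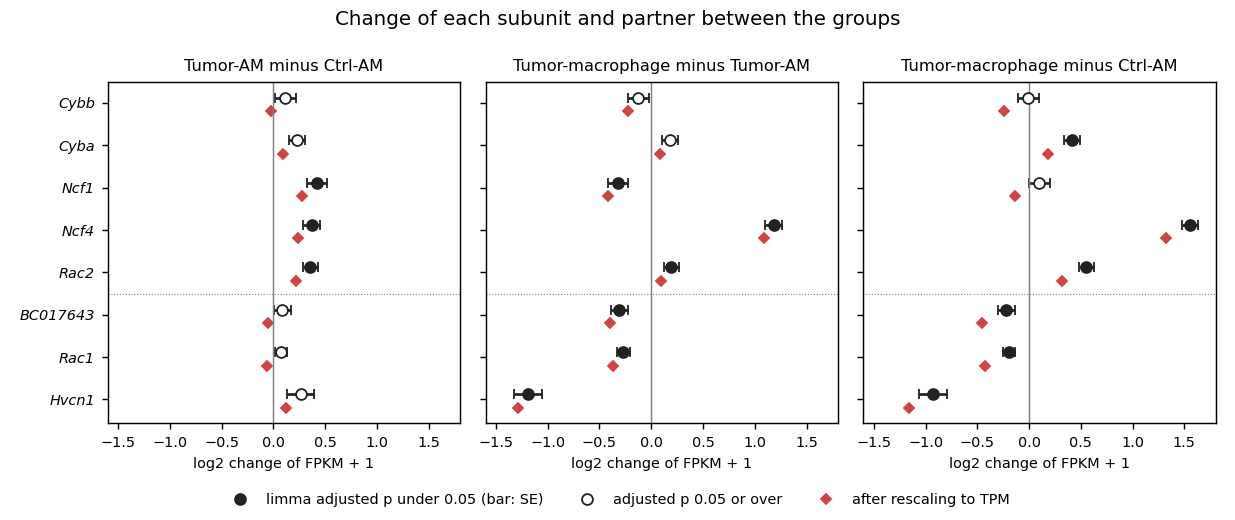
Log2 change of FPKM + 1 with its SE for the 5 members, above the dotted line, and 3 partners in the 3 comparisons. Filled circles passed a limma adjusted p of 0.05, and red diamonds show the change after rescaling to TPM. Ncf4 stands apart at 1.18 and 1.55 in the comparisons with TAMs, while Hvcn1 lies at -1.19 and -0.93.

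Other parts and partners of the oxidase formed a further list. Of 6 tested, 0 were called between the AM groups, and 2 were higher and 3 lower in TAMs than in Tumor-AM, with a median log2 change of -0.07, beside 24.2% higher and 24.4% lower over all genes, so that 2 of 6 higher is near the background. The lower genes were BC017643, Rac1 and Hvcn1. BC017643 is taken here as an earlier symbol of Cybc1, whose product helps to fold and keep the membrane dimer, though no table used here pairs the symbols. It was at 42.3 ± 1.63 FPKM for Tumor-AM and 34.0 ± 2.50 FPKM for TAMs (log2 change -0.31 ± 0.08, limma adjusted p = 0.00985). Hvcn1 encodes the proton channel that balances the charge the oxidase moves. It was at 84.8 ± 1.70 FPKM for Ctrl-AM, 102 ± 7.22 FPKM for Tumor-AM and 44.9 ± 10.2 FPKM for TAMs, a log2 change of -1.19 ± 0.13 from Tumor-AM (limma adjusted p = 2.80e-05). Rac1, the Rac GTPase of most cells, was at 396 ± 13.5 FPKM for Tumor-AM and 329 ± 9.52 FPKM for TAMs (log2 change -0.27 ± 0.06, limma adjusted p = 0.00364), opposite to Rac2. Rac1 and Hvcn1 overlap Daglb and Tctn1 on the other strand, which share 54.7% and 50.1% of their windows. The higher genes were Arhgdib (0.25 ± 0.06, limma adjusted p = 0.00724) and Arhgdia (0.18 ± 0.06, 0.0325), inhibitors that hold Rac in the cytosol. The Arhgdia call was lost in 10 of 18 alternatives.

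The balance between subunits was also followed as the ratio of their FPKM within each sample, which multiplying a whole sample by a factor, as TPM does, cannot change. Quantile normalization can change it and was added for the ratios after the data were seen. The 7 ratios were each tested across the 3 groups by exact permutation (280 partitions of 9 samples), with p adjusted over the 7. The smallest p this design gives is 0.00357. Of the 7 ratios, 6 passed, and Rac2 to Cyba did not, with an exact permutation p of 0.261. After quantile normalization 4 passed, Ncf4 to Cyba, Ncf1 to Ncf4, Rac2 to Rac1 and Rac2 to Cyba. The ratios share genes, so that their results are not independent. How many ratios of other gene pairs would pass was not computed, and these counts have no background beside them.

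Ncf4 to Cyba was 0.0315, 0.0321 and 0.0291 for Ctrl-AM, 0.0341, 0.0341 and 0.0344 for Tumor-AM and 0.0713, 0.0707 and 0.0648 for TAMs. The 3 groups did not overlap, and the TAM ratios stood far above both AM groups (exact permutation p = 0.00357, adjusted 0.00833). Ncf1 to Cyba was lowest in TAMs, with means of 0.0821 ± 0.000635 for Ctrl-AM, 0.0939 ± 0.00689 for Tumor-AM and 0.0663 ± 0.00725 for TAMs (exact permutation p = 0.00357, adjusted 0.00833). After quantile normalization its group means of the log2 ratio were -3.71, -3.62 and -3.65 in the same order, and the call was lost (adjusted exact permutation p = 0.568). Ncf1 to Ncf4 was 2.66 ± 0.130 for Ctrl-AM and 2.75 ± 0.201 in Tumor-AM but 0.963 ± 0.113 for TAMs, where both messages were about equal per length (exact permutation p = 0.025, adjusted 0.0292). The AM groups overlapped in this ratio. Cybb to Ncf1 was lowest in Tumor-AM, at 2.36 ± 0.195, beside 2.91 ± 0.122 for Ctrl-AM and 2.69 ± 0.129 for TAMs (exact permutation p = 0.00714, adjusted 0.0125, and 0.055 after quantile normalization).

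Within the membrane pair, Cybb to Cyba was 0.239 ± 0.0114 for Ctrl-AM, 0.221 ± 0.0248 for Tumor-AM and 0.179 ± 0.0257 for TAMs (exact permutation p = 0.0214, adjusted 0.0292). Ctrl-AM and Tumor-AM overlapped, and all TAM ratios lay below both. This call was lost when any of 5 samples was left out, Tumor-macrophage 2 among them, without which the adjusted exact permutation p was 0.117. It was also lost after quantile normalization (adjusted exact permutation p = 0.504), where the lowest ratios on average were those of Tumor-AM. Rac2 to Rac1 was 0.228 ± 0.0137 for Ctrl-AM, 0.278 ± 0.0194 for Tumor-AM and 0.384 ± 0.0349 for TAMs, with no overlap (exact permutation p = 0.00357, adjusted 0.00833). Daglb on the other strand shares 54.7% of the Rac1 windows, and the part of its reads in this ratio was not tested.

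**Figure D3:**
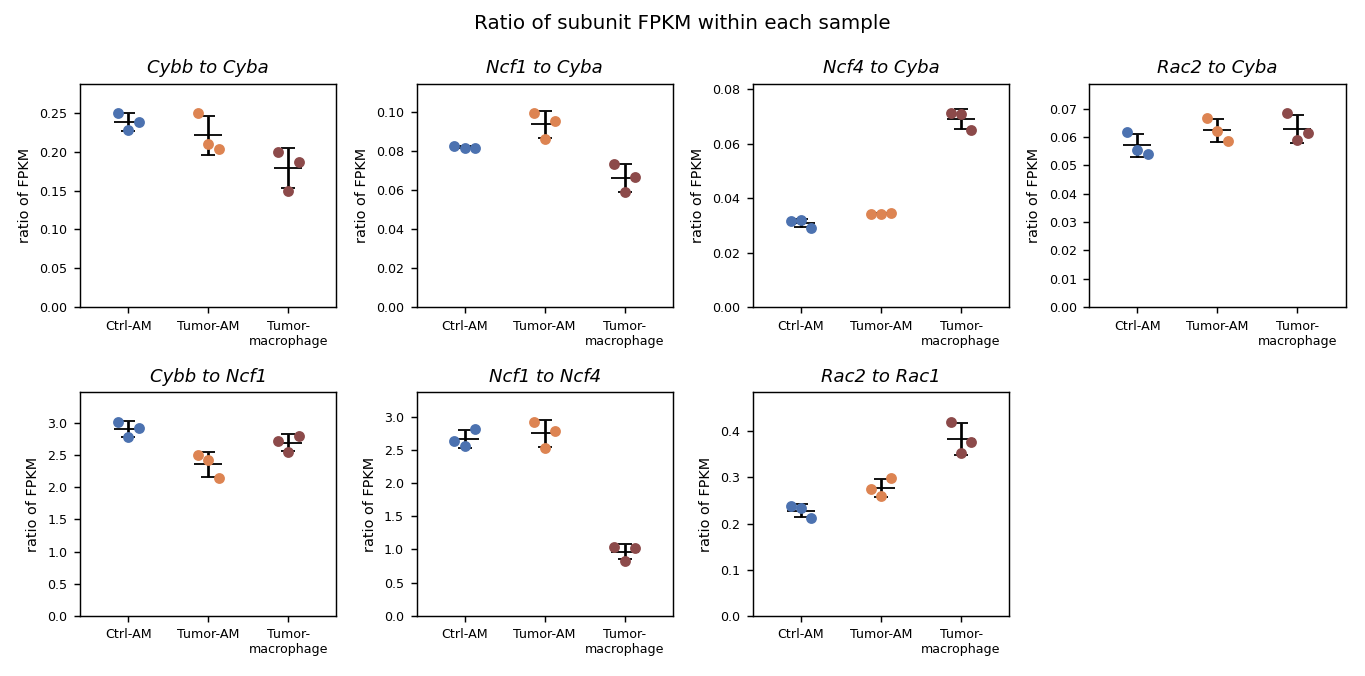
Ratio of the FPKM of 2 subunits within each sample, with 1 point per sample and a black bar for the mean and SD of each group of 3. Ncf1 to Ncf4 falls from 2.66 and 2.75 in the AM groups to 0.963 for TAMs, while Rac2 to Cyba overlaps between all groups.

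Other NADPH oxidases were near the floor. Of Nox1, Nox3, Nox4, Duox1, Duox2, their maturation factors Duoxa1 and Duoxa2, and the Nox1 partners Noxo1 and Noxa1, 0 of 9 reached the filter of 1 FPKM in at least 3 samples. The highest group mean among them was 0.718 ± 0.418 FPKM, that of Noxo1 in TAMs.

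A further list held genes that switch the oxidase on. Of 14 tested kinases, lipid enzymes and exchange factors, 1 was higher and 0 lower in Tumor-AM relative to Ctrl-AM, and 6 were higher and 1 lower in TAMs than in Tumor-AM. Over all genes tested 7.11% and 3.18% were called in the first comparison, so that 1 of 14 is near the background, and 24.2% and 24.4% in the other. The median log2 changes were 0.15 and 0.15. Prkcb, a protein kinase C that phosphorylates p47phox and is also abundant in B cells, was at 0.497 ± 0.173 FPKM for Ctrl-AM, 1.26 ± 0.436 FPKM for Tumor-AM and 17.4 ± 3.57 FPKM for TAMs, a log2 change of 3.03 ± 0.19 from Tumor-AM (limma adjusted p = 3.01e-07), or 3.72 with a pseudocount of 0.1 in place of 1. The summed B cell markers given above were also highest in TAMs but lowest in Tumor-AM, whereas mean Prkcb was lowest in Ctrl-AM. The part of B cells in the Prkcb level was not tested. Pak1, a kinase under Rac, was 1.59 ± 0.12 higher (limma adjusted p = 1.69e-06), and Prkcd, another kinase of p47phox, 0.39 ± 0.09 higher (0.00412). The Rac exchange factors Vav1 and Vav3 were higher by 0.64 ± 0.09 (limma adjusted p = 0.000163) and 0.90 ± 0.14 (0.000315), and Vav3 was also the gene called in Tumor-AM, at 0.58 ± 0.14 (0.0262). The lipid kinase gene Pik3cd was 0.48 ± 0.12 higher (limma adjusted p = 0.00681). Akt1 was lower, at -0.31 ± 0.10 (limma adjusted p = 0.0246). Pik3c3, whose product makes the lipid that p40phox binds, was at -0.26 ± 0.10 (limma adjusted p = 0.0504).

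Transcription factors known to act on subunit genes changed in opposite directions. Of 7 tested, 3 were higher and 1 lower in Tumor-AM relative to Ctrl-AM, beside 7.11% and 3.18% of all genes. In TAMs 2 were higher and 4 lower than in Tumor-AM, beside 24.2% and 24.4%, so that the count of higher genes is near the background. The median log2 changes were 0.09 and -0.24. The interferon-linked factors Irf8 and Irf1 were higher in both steps. Irf8 was at 38.6 ± 2.00, 53.2 ± 5.74 and 106 ± 9.35 FPKM for Ctrl-AM, Tumor-AM and TAMs (log2 changes 0.45 ± 0.10, limma adjusted p = 0.0170, and 0.99 ± 0.10, 1.07e-05). Irf1 was at 38.8 ± 4.28, 87.9 ± 25.7 and 163 ± 23.1 FPKM (1.13 ± 0.18, limma adjusted p = 0.00390, and 0.91 ± 0.18, 0.00166). Spi1, which encodes PU.1, was close in the AM groups, at 306 ± 4.78 and 307 ± 7.15 FPKM, and lower in TAMs, at 239.6 ± 16.6 FPKM (log2 change -0.36 ± 0.07, limma adjusted p = 0.00110). Runx1 and Cebpb were also lower in TAMs than in Tumor-AM, by log2 changes of -0.98 ± 0.10 (limma adjusted p = 1.51e-05) and -1.06 ± 0.10 (9.15e-06), although Cebpb was higher in Tumor-AM relative to Ctrl-AM (0.37 ± 0.10, 0.0446), a call lost in 11 of 18 alternatives. Cebpa was lower in both, by -0.33 ± 0.08 (limma adjusted p = 0.0357) and -0.24 ± 0.08 (0.0349).

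**Figure D4:**
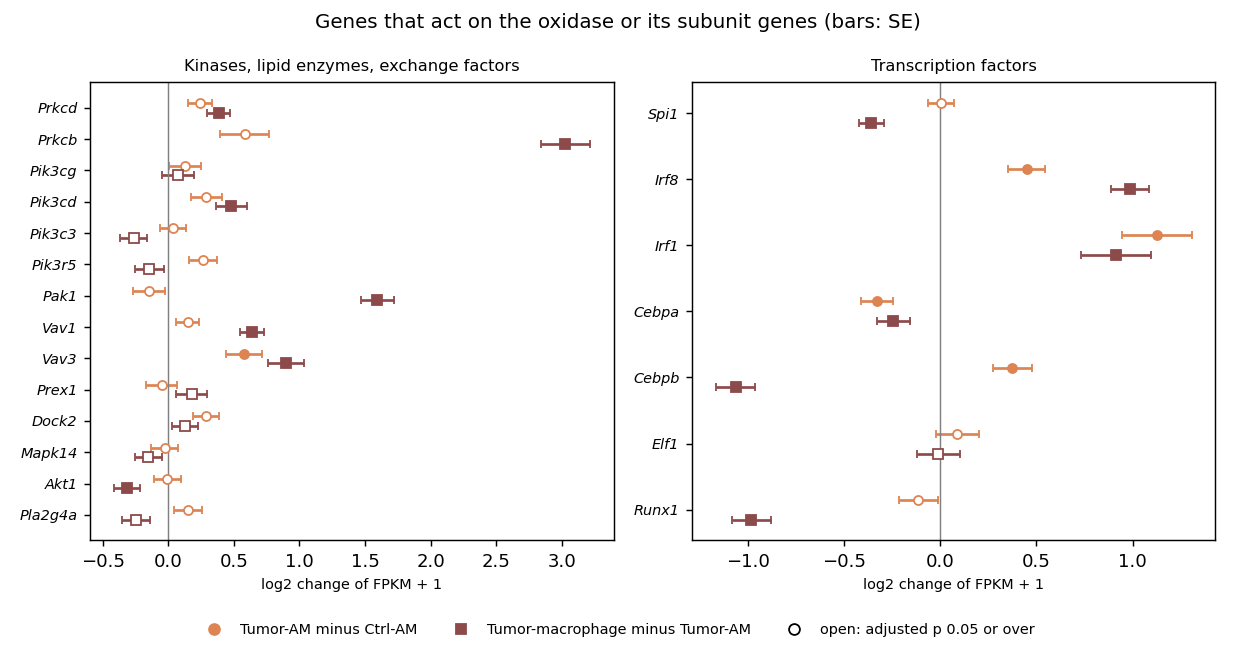
Log2 change of FPKM + 1 with its SE for 14 kinases, lipid enzymes and exchange factors and 7 transcription factors, in Tumor-AM against Ctrl-AM (circles) and Tumor-macrophage against Tumor-AM (squares). Filled symbols passed a limma adjusted p of 0.05. Prkcb at 3.03 and Pak1 at 1.59 lie farthest to the right, and Cebpb at -1.06 farthest to the left.

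Enzymes that use or remove the products of the oxidase formed the last list. Of 9 tested, 1 was higher and 0 lower in Tumor-AM relative to Ctrl-AM, the peroxiredoxin gene Prdx2 (0.34 ± 0.09, limma adjusted p = 0.0405, lost in 11 of 18 alternatives), and 2 were higher and 1 lower in TAMs than in Tumor-AM, with median log2 changes of 0.20 and -0.03. Beside 7.11% and 3.18% of all genes in the first comparison and 24.2% and 24.4% in the other, these counts are near the background or below it. Catalase, encoded by Cat, was at 101 ± 9.48 FPKM for Tumor-AM and 64.0 ± 9.98 FPKM for TAMs (log2 change -0.67 ± 0.12, limma adjusted p = 0.000730). The higher genes were Sod1, the cytosolic superoxide dismutase (0.30 ± 0.09, limma adjusted p = 0.0176), and Prdx5 (0.32 ± 0.10, 0.0241). Mpo, the peroxidase of neutrophil granules, did not reach the filter, with a highest group mean of 0.0341 FPKM.

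Set against Ctrl-AM instead, TAMs had 2 genes higher and 3 lower among the other parts and partners, 7 higher and 1 lower among the kinases, lipid enzymes and exchange factors, 2 higher and 4 lower among the transcription factors, and 4 higher and 3 lower among the enzymes, of 6, 14, 7 and 9 tested and beside 27.7% higher and 27.1% lower over all genes. The median log2 changes were -0.0081, 0.31, -0.35 and -0.09.

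Across the 9 samples Cyba, Ncf4 and Rac2 varied most alike. The Pearson correlation of log2(FPKM + 1) was 0.903 between Cyba and Ncf4, 0.910 between Cyba and Rac2 and 0.870 between Ncf4 and Rac2, and it was 0.729 between Cybb and Ncf1. Between Cybb and Ncf4 it was -0.178. These values describe 9 samples that fall into 3 groups, so that any genes with the same order of groups correlate. The genes most like Ncf4 were C1qb (r = 0.997, from 11.1 FPKM for Ctrl-AM to 6882 FPKM for TAMs), Kcnk13 and Efhd2, and 14.5% of all genes tested had an r over 0.9 with it. For Ncf1, which was highest in Tumor-AM, they were Nfil3 (r = 0.968, at 99.7, 193 and 113 FPKM in the 3 groups), Arid3a and Myo1f, and only 0.206% of tested genes were over 0.9. The nearest to Cyba were Tspan31 (r = 0.982), Igfbp4 and Aes, to Rac2 Lhfpl2 (r = 0.988), Cpeb2 and Wsb2, and to Cybb Ppfibp2 (r = 0.926), Slc25a35 and Arhgap25, the only 3 tested genes over 0.9 with Cybb.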

How the data were processed

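The members and gene lists were chosen with earlier results of these data known, and some genes of the lists are not reported here. By their methods, the authors used SMART-Seq HT cDNA and Nextera libraries, which do not mark strand, with single-end reads of 75 bases. They deposited FPKM values, 1 per gene symbol and sample, and the labels name the genome build mm10, TopHat2 2.1.1, Bowtie2 and Cuffdiff 2.2.1. For the FPKM the study's methods name Cufflinks 2.2.1 instead. The annotation the authors used is not given in the sources used here. All 9 samples entered, in the 3 groups of their labels, with no batch given.

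From these values, log2(FPKM + 1) was modelled in limma 3.58.1 (R 4.3.3), with an intensity trend and a spread shared by the 9 samples. The 10686 genes that reached 1 FPKM in 3 samples or more were tested. P-values are two-sided, with Benjamini-Hochberg adjustment over these genes and a threshold of 0.05. The pseudocount understates changes of low genes. Errors of FPKM and of ratios are SD, and those of log2 changes are SE. Ratios were tested by exact permutation. Both tests were checked on simulated data. The members were named in full, then genes of the lists, and the 3 genes most correlated with each member.

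Whole reads leave steps in low FPKM values. By these steps, relative depth ran from 0.906 to 1.14, and 72.4% to 76.3% of ratios of low values fell within 0.2% of a ratio of small whole numbers. On a shifted grid this share was at most 0.605%. With an assumed fragment of 200 bases this gives 11100000 to 14000000 reads per sample. It covers counting error only.

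Alternatives were a pseudocount of 0.1, no filter, a filter of 5 FPKM, quantile normalization, rescaling to TPM, median-ratio scaling, no intensity trend, a fit of the 2 groups compared, blocking on the replicate number, and the omission of every sample in turn. Quantile normalization of the ratios was added after the data were seen. Positions came from GENCODE vM21 and promoters from RefSeq, and 3 of 5 members matched the promoter table.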

Additional observations from a re-analysis of the deposited data

How the results depend on the processing

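The rise of Ncf4 in TAMs and the fall of Hvcn1 in TAMs passed the limma threshold in both TAM comparisons under each of 18 alternatives. None of these alternatives separates reads of Tctn1 on the other strand, which shares 50.1% of the Hvcn1 windows. The AM comparison was less firm. Rescaling to TPM left 0 of the 5 members called between Tumor-AM and Ctrl-AM, and leaving out 1 sample at a time gave 0 to 3 members and 535 to 1255 called genes. Of the list genes named, the Tumor-AM calls of Irf8, Cebpa and Vav3 were lost in 4, 8 and 5 of 18 alternatives, and in TAMs against Tumor-AM those of Cebpa and Prdx5 in 7 each, Akt1 in 4, Sod1 in 3 and Arhgdib in 1. Under TPM, Cybb, BC017643 and Rac1 turned to -0.0219, -0.0493 and -0.0622 in Tumor-AM against Ctrl-AM, and Ncf1 to -0.13 in TAMs against Ctrl-AM. Under quantile normalization, Cyba turned to -0.29 against Tumor-AM and -0.0074 against Ctrl-AM. When 1 sample was left out, the change of Cybb in TAMs against Ctrl-AM ran from -0.0753 to 0.11 (without Tumor-macrophage 2, and 0.0063 without Ctrl-AM 1). The cause was not tested. The range of group means of log2 Cybb to Cyba ran from 0.30 to 0.51 when 1 sample was left out. Quantile normalization of the ratios, chosen after seeing the data, gave ranges of 0.19 for Cybb to Cyba, 0.0886 for Ncf1 to Cyba and 0.28 for Cybb to Ncf1, which no longer passed, and 0.54 for Rac2 to Cyba, which then passed (adjusted exact permutation p = 0.0417).

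Samples with the same replicate number deviated together little (mean r across genes 0.0547, from -0.0615 to 0.159, with 2 of 9 pairs over 0.1). Only Tumor-AM and TAM samples could share a mouse, and their r was 0.0260, 0.0964 and 0.109 for numbers 1, 2 and 3. These values are low but all positive and cannot decide on a pairing. The replicate number was not taken as a pairing. Under a block on replicate number, 3, 2 and 3 members were called in the AM comparison, TAMs against Tumor-AM and TAMs against Ctrl-AM, and Rac2 in TAMs against Tumor-AM had a limma adjusted p of 0.0502. Ncf1 to Ncf4, at 1.52, had an adjusted exact permutation p of 0.111. The block leaves fewer rearrangements for every ratio, and why this call was lost was not tested.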
